A study of Mus musculus with 20 samples.

Results

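The comparison described here asks what differed when a hairpin labelled UTY_sh was added to a construct labelled mNKX3.1 in seminal vesicle epithelium. It sets the 4 libraries labelled with both against the 4 labelled with the construct only, which makes 8 of the 20 libraries of the series, over 13456 of the 23284 genes in the table. Those genes had a value of 5 or more in at least 4 of the 20 libraries.

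Each library is poly-A RNA of a tissue recombinant, a graft in which mouse epithelium is put together with rat mesenchyme. Epithelial cells of the seminal vesicle (SVE), taken from C57Bl/6J donors aged 2 months, were joined with urogenital sinus mesenchyme (UGM) of Sprague Dawley rats. The grafts were collected 3 months after implantation. The labels also give the mouse background as a hybrid of 129/SvImJ and C57Bl/6J. Both groups carry the construct labelled mNKX3.1 and were induced by doxycycline, given for 3 months with the drinking water, from a modified pTRIPZ vector. The labels name wild-type NKX3.1 and a point mutant among the induced forms and do not say which one the m denotes. The other groups serve only as reference levels: unmodified SVE, prostate epithelium (PE) and SVE with the hairpin alone (UTY_sh), each with UGM and 4 libraries. The labels do not state whether different animals gave the libraries of a group, so p-values measure the spread between libraries, which may be technical. Reads of rat origin cannot be separated from mouse reads in the table, which bears on stromal genes.

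NKX3.1 is a homeodomain transcription factor of the prostate epithelium, a tissue that arises from the urogenital sinus, whereas the seminal vesicle arises from the Wolffian duct. Both glands secrete large amounts of a few proteins under the control of androgens. Urogenital sinus mesenchyme instructs epithelium to form prostate. UTY, encoded on the Y chromosome, is related to the H3K27 demethylase KDM6A and is a subunit of the MLL3 and MLL4 complexes. EHMT2 (G9a) methylates H3K9.

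The promoters of 4 of the secretory genes that this comparison turned on are shown first. Sva, Svs3a and Svs6 encode secretory proteins of the seminal vesicle and were higher with the hairpin label, and Pbsn, the androgen-dependent probasin gene of the prostate, was lower. The sequences are the 250 bases before the annotated start, in the direction of the gene, from RefSeq on GRCm38.p6, another build than the mm9 of the expression table. In that build they lie at chr6:42038144-42038393 (plus strand), chr2:164289017-164289266 (plus strand), chr2:164316501-164316750 (plus strand) and chrX:77853501-77853750 (minus strand). Capitals mark the letters of 3 short motifs, searched on both strands: AGAACA, the core of an androgen response element (TGTTCT on the other strand), TAAGTA, the core of the NKX3.1 consensus, and TGTTTAC, a forkhead motif. No 2 of the marked matches overlap.
Sva: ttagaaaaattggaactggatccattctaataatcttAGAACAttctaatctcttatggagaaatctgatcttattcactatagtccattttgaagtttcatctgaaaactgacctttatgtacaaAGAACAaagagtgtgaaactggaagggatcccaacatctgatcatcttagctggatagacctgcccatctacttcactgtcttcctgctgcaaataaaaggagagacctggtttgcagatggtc
Svs3a: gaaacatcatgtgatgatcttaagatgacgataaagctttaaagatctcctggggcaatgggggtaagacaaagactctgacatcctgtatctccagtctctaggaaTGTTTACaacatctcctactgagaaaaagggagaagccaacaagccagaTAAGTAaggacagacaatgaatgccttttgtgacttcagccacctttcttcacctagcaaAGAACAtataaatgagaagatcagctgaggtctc
Svs6: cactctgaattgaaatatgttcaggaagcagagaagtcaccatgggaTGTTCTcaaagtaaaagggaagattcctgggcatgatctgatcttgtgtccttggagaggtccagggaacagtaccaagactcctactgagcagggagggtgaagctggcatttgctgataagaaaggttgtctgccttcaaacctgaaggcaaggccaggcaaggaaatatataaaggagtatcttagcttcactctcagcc
Pbsn: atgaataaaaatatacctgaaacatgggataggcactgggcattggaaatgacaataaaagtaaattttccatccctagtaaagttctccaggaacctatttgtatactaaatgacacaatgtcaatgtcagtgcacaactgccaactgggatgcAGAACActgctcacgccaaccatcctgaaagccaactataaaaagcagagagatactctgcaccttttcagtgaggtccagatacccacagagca
In windows of 300 bases (250 before to 50 after the start), AGAACA was found in 9 of 13 promoters of the seminal vesicle secretory list (69.2%) and in 8 of 23 of the prostate secretory list (34.8%). It was found in 19.0% of all 32851 promoters. TAAGTA was found in 4 of 13 seminal vesicle promoters (30.8%), in 0 of 23 prostate promoters and in 7.59% of all. TGTTTAC was found in 3 of 13 (23.1%), in 0 of 23 and in 3.65% of all. The 13 promoters belong to 10 genes, since each annotated start is counted, also where starts of one gene overlap. The 3 promoters with TGTTTAC were those of Svs3a, whose annotated starts lie 1 base apart, and of its close copy Svs3b, and they held all 3 motifs, so these matches are not independent of each other. Among the 12315 promoters of tested genes, TGTTTAC was found in 2.5% and TAAGTA in 4.67%. Among the genes called at least 2-fold higher, 13.2% of 1088 promoters held AGAACA, against 14.2% of 1032 for those at least 2-fold lower and 12.55% of 12315 for all tested genes that matched. These matches are letters in a window and say nothing of binding. Msmb and Hoxb13 had no entry in the promoter table.

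Before the results, the standing of the libraries is given, because several stood apart from what their labels name. Values are the deposited log2 values, on which a difference of 1 is a factor of 2, and values level off near 2.27 for genes that are barely detected, so differences against a group near that floor are understated. About 15470000 to 21860000 reads stood behind the mNKX3.1 libraries and 24050000 to 29810000 behind those labelled mNKX3.1+UTY_sh. Across the 13456 genes, the mNKX3.1 libraries lay at a root mean square distance of 0.188 to 0.620 from PE libraries and 0.939 to 1.26 from the mNKX3.1+UTY_sh libraries. The latter lay at 0.236 to 0.580 from SVE and 0.241 to 0.473 from UTY_sh libraries. Each mNKX3.1 library was also close to a weighted sum of 2 PE libraries over 4067 abundant genes, with a median squared residual of 1.24 to 1.92 times the counting noise. Replicate numbers, here and below, follow the order of the library names in each group and are not given by the labels. The nearest sums were PE replicates 1 and 3 for replicate 1, 2 and 3 for replicates 2 and 4, and 1 and 2 for replicate 3. For PE libraries the same measure was 2.77 to 10.7. For mNKX3.1+UTY_sh libraries it was 1.67 to 2.65, with replicate 4 nearest to a sum of SVE replicate 1 (weight 0.542) and UTY_sh replicate 2 (weight 0.450). Replicates 1 and 3 were nearest to a single UTY_sh library each, replicate 4 (weight 1.02) and replicate 2 (weight 1.005), and replicate 2 mostly to UTY_sh replicate 1 (weight 0.911). Within their own group, the mNKX3.1 libraries lay at 0.165 to 0.472 from each other, with the lowest distance between replicates 2 and 4. The mNKX3.1+UTY_sh libraries lay at 0.247 to 0.490 from each other. The cause of these likenesses was not tested. If the libraries are not independent of each other, the SEs and adjusted p-values below may be too small.

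The gene that the hairpin's label names was examined in every library. Uty was at 10.31, 10.29, 10.07 and 10.27 in the libraries labelled mNKX3.1 and at 9.12, 9.12, 9.09 and 9.29 in those labelled mNKX3.1+UTY_sh. The groups did not overlap, and the difference was -1.08 (SE 0.11, limma adjusted p = 1.37e-07). In SVE, which carries no hairpin, Uty was at 9.55, 9.27, 9.04 and 9.29, and in UTY_sh at 9.16, 9.22, 9.52 and 8.98. A lower level than in unmodified SVE was not detected for Uty: the difference between mNKX3.1+UTY_sh and SVE was -0.14, with a 95% interval from -0.37 to 0.10. Uty in PE was at 10.13 to 10.45, so the higher level lay in the mNKX3.1 libraries and PE.

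The other Y-linked genes were read as a check on that difference. Ddx3y, a Y-linked RNA helicase gene that no hairpin in the labels names, was at 11.49, 11.31, 11.22 and 11.31 in mNKX3.1 and at 10.32, 10.29, 10.28 and 10.62 in mNKX3.1+UTY_sh. Ddx3y fell by 0.96 (SE 0.12, adjusted p = 2.51e-06), close to the size for Uty, and also without overlap. Kdm5d, a Y-linked H3K4 demethylase gene, differed by -0.11 (SE 0.07, adjusted p = 0.169), and Eif2s3y, a translation factor gene, by -0.05 (SE 0.09, adjusted p = 0.619). Of 4 tested Y-linked genes 0 rose and 2 fell. Usp9y, Zfy1 and Sry stayed below the minimum and were not tested, with values of at most 3.14 in these 8 libraries.

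The libraries of both groups are named below only as labelled. Ehmt2 was at 11.23 to 11.34 in mNKX3.1 and 11.32 to 11.43 in mNKX3.1+UTY_sh, a difference of 0.07 (SE 0.06, adjusted p = 0.264).

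**Figure D1:**
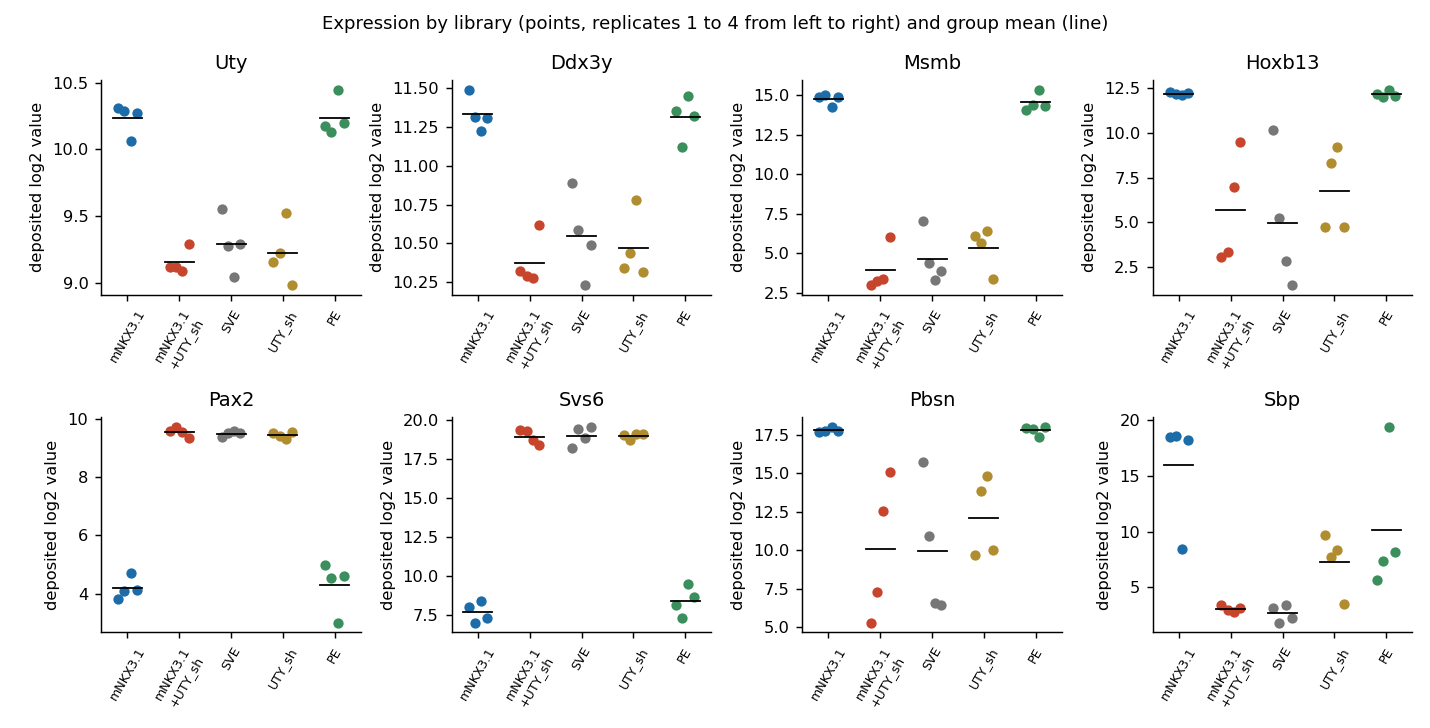
Deposited log2 values of 8 genes (vertical axis, a separate scale per panel) in the 4 libraries of each of 5 groups, points in the order of replicates 1 to 4 and a line at the group mean. Except for Sbp, the mNKX3.1 points lie with PE and the mNKX3.1+UTY_sh points with SVE and UTY_sh, and prostate genes such as Pbsn spread within SVE, UTY_sh and mNKX3.1+UTY_sh; for Sbp, mNKX3.1 replicate 3 stands at 8.46 below the other 3.

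Over all genes, 8580 of 13456 differed between mNKX3.1+UTY_sh and mNKX3.1 at an adjusted p under 0.05 in limma, which is 63.8% of the genes tested. Of these, 4223 (31.4% of the tested) were higher and 4357 (32.4%) lower with the hairpin label. Many of the differences were small, since 41.1% of the called genes moved by less than 0.5 on the log2 scale. At least 2-fold changes numbered 1167 higher and 1164 lower, and at least 8-fold changes 161 higher and 195 lower. The 4 values of each group did not overlap for 61.9% of genes, 30.6% higher and 31.3% lower. The median difference of all tested genes was -0.016. Counts of any gene list below are to be read against these shares. After rescaling each library to an equal sum outside the 50 most abundant genes, 4659 were higher and 3731 lower.

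The same label change without the construct, UTY_sh against SVE, gave 0 called genes in limma (0% of those tested), with 316 (2.35%) at an unadjusted p under 0.05. The difference between the differences was tested as an interaction. It was called for 6467 genes (48.1%), 3234 higher (24%) and 3233 lower (24%), and for 135 of the 140 genes named by the rule. This interaction contains the mNKX3.1 and mNKX3.1+UTY_sh libraries again, so it is not a second observation of the changes above. For Uty it was -1.01 (SE 0.16, adjusted p = 4.09e-05). For mNKX3.1+UTY_sh against unmodified SVE the count was likewise 0 (0%) in limma, and 557 genes (4.14%) had an unadjusted p under 0.05.

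**Figure D2:**
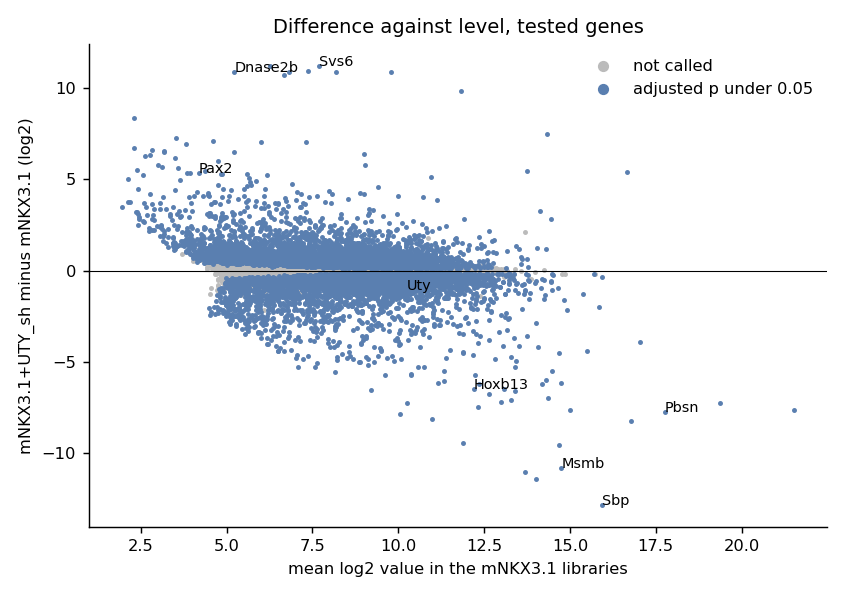
Each point is one of the 13456 tested genes, placed by its mean log2 value in the 4 mNKX3.1 libraries (horizontal axis) and by the difference mNKX3.1+UTY_sh minus mNKX3.1 in log2 units (vertical axis), coloured by whether the adjusted p was under 0.05. The seminal vesicle gene Svs6 lies near the top at 11.22 and the prostate gene Sbp at the bottom at -12.84, while Uty lies close to zero among many called genes.

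Most seminal vesicle secretory genes were far higher with the hairpin label. Of 12 tested members 10 rose, 1 fell, at -5.48, and 1 did not pass. The median difference was 10.37 against -0.016 for all genes tested. Sva was at 6.21, 5.77, 6.97 and 6.06 in mNKX3.1 and at 17.83, 17.82, 17.33 and 16.93 in mNKX3.1+UTY_sh, a rise of 11.23 (SE 0.37, adjusted p = 3.47e-14). Svs6 went from 8.04, 7.03, 8.44 and 7.30 to 19.31, 19.25, 18.73 and 18.39, a rise of 11.22 (SE 0.40). These 2 genes, whose promoters are printed above, moved from low values to among the most abundant in the library, with no overlap. Svs3a and Svs3b rose by 10.95 and 10.90, and because they are close copies the split of reads between them is uncertain. Ceacam10, a seminal vesicle secretory gene of the CEA family, rose by 10.90 (SE 0.36).

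Members that were already abundant in mNKX3.1 rose less. Svs2, the main protein of the copulatory plug, was at 16.38, 16.38, 17.23 and 16.61 and then at 22.17, 22.28, 21.99 and 21.72, a rise of 5.39 (SE 0.67). Svs5 rose by 7.48 and Pate4 by 5.49. Spink3, a serine protease inhibitor gene, was at 16.15, 16.23, 6.52 and 15.91 in mNKX3.1 and at 16.11, 16.13, 15.69 and 15.39 in mNKX3.1+UTY_sh. Only mNKX3.1 replicate 3 was low, and the difference of 2.12 (SE 2.16, adjusted p = 0.402) did not pass.

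Most genes of the prostate secretory list were far lower. That list also holds Hoxb13, a transcription factor gene that is counted again among the regulators below. Of 24 tested members 21 fell and 3 rose, with a median of -7.25. Msmb, which encodes beta-microseminoprotein, was at 14.86, 15.02, 14.25 and 14.85 in mNKX3.1 and at 2.97, 3.24, 3.37 and 6.04 in mNKX3.1+UTY_sh, a difference of -10.84 (SE 0.76, adjusted p = 1.04e-09). Pbsn was at 17.69, 17.71, 17.96 and 17.72 and then at 5.29, 7.27, 12.56 and 15.06, a difference of -7.72 (SE 1.96, adjusted p = 0.00221). The groups did not overlap for either gene, but Pbsn spread over nearly 10 log2 units within the hairpin group. Wfdc3, of the whey acidic protein family, fell by 9.47 (SE 0.52), and Defb50, a beta-defensin gene, fell by 9.55 (SE 0.85). Tgm4, the prostate transglutaminase gene, fell by 7.28 (SE 1.93).

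The 3 members that rose were Spinkl, Folh1 and Clu. Spinkl, a serine protease inhibitor gene, went from 7.18, 5.93, 7.54 and 6.01 to 17.54, 17.58, 17.32 and 17.05, a rise of 10.71 (SE 0.40) that was of the size of the seminal vesicle genes. Folh1, which encodes a membrane carboxypeptidase, rose by 2.43 and Clu, the clusterin gene, by 1.07.

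Sbp, the gene of a prostate protein that binds spermine, and its relative Sbpl had the largest falls but rested on uneven libraries. Sbp was at 18.48, 18.53, 8.46 and 18.22 in mNKX3.1 and at 3.45, 2.95, 2.76 and 3.19 in mNKX3.1+UTY_sh. The difference was -12.84 (SE 2.43, adjusted p = 1.62e-04), and -15.32 without mNKX3.1 replicate 3, the low library. In PE, Sbp was at 5.63, 7.35, 19.38 and 8.14, so only PE replicate 3 was high. Replicate 3 of mNKX3.1 was the one mNKX3.1 library whose nearest sum of 2 PE libraries left out PE replicate 3. Sbpl differed by -11.44 (-13.83 without that library). Spink5, a protease inhibitor gene, was at 13.35, 13.30, 4.29 and 12.99 in mNKX3.1, with the same library low. It differed by -8.12 (-10.35 without that library).

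As a share of the summed antilog values of a library, the seminal vesicle list took 1.27%, 1.24%, 1.39% and 1.25% in mNKX3.1 and 60.6%, 60.8%, 56.7% and 51.5% in mNKX3.1+UTY_sh. The prostate list took 27.5%, 29.3%, 28.2% and 29.5%, and then 0.685%, 0.695%, 1.27% and 3.32%. That share includes the members that rose, Spinkl, Folh1 and Clu, and Spinkl was abundant in every mNKX3.1+UTY_sh library. The share of the other prostate members was therefore lower there than these values, and it was not computed separately. Svs2 alone took 14.3% to 17.4% of the mNKX3.1+UTY_sh libraries and 0.544% to 0.967% of the mNKX3.1 libraries. At these depths a 95% Wilson interval was at most 0.0229 percentage points to either side and covers counting error only. The groups did not overlap in either share, and in bulk tissue fewer cells of a type and less RNA per cell cannot be told apart.

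**Figure D3:**
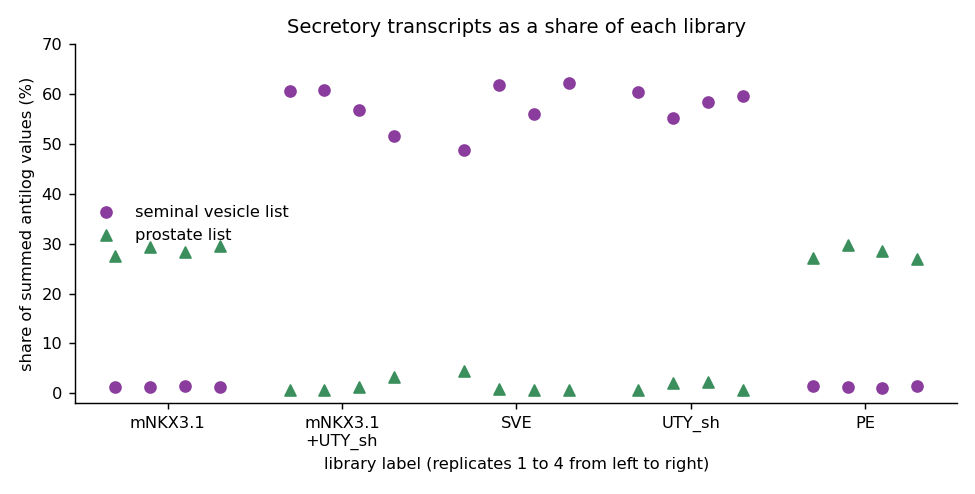
Share of each library's summed antilog values (vertical axis, percent) taken by the seminal vesicle list (circles) and the prostate list (triangles), libraries of each group in the order of replicates 1 to 4. The seminal vesicle share is 51.5% to 60.8% in mNKX3.1+UTY_sh and 1.24% to 1.39% in mNKX3.1. The prostate list includes Spinkl, which was abundant in mNKX3.1+UTY_sh, so the triangles there understate the fall of the other members.

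The libraries labelled mNKX3.1+UTY_sh differed from each other in their remaining level of the genes that fell. For the 80 genes that fell at least 8-fold from a mNKX3.1 mean of at least 10, the median level was 1.5%, 1.58%, 4.87% and 18.1% of the mNKX3.1 mean in replicates 1 to 4. Replicate 4 was above replicate 3, and replicate 3 above both others, for 70 of the 80 genes (87.5%). The 71 genes that rose at least 8-fold to a mean of at least 10 were at 108%, 113%, 101% and 82.0% of their group mean in the same libraries. The median SD between these 4 libraries was 1.31 for the falling genes and 0.22 for the rising ones.

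A small number of the falling genes stayed low in every library. The 9 genes 5430419D17Rik, BB123696, D030018L15Rik, Defb50, Msmb, Sbp, Sbpl, Spink5 and Wfdc3 stayed below 1% of the mNKX3.1 mean in all 4 libraries, and they are named after their values were seen. Of these 9, 5430419D17Rik, BB123696, D030018L15Rik, Sbp, Sbpl and Spink5 also varied within mNKX3.1, where replicate 3 was the low library. Msmb was at 0.0284%, 0.0344%, 0.0377% and 0.239%. In contrast Pbsn was at 0.0175%, 0.0690%, 2.70% and 15.3%, and Tgm4 at 0.0280%, 0.0798%, 4.11% and 18.8%. Unmodified SVE and UTY_sh also had libraries that were high in Pbsn, with SVE at 15.71, 10.94, 6.59 and 6.43 and UTY_sh at 9.69, 13.81, 14.81 and 10.02. Without mNKX3.1+UTY_sh replicate 4 the median difference of the prostate list was -8.43, without replicates 3 and 4 it was -9.45, and without replicate 1 it was -5.94. Of its 24 tested members 21 fell in each of these fits.

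**Figure D4:**
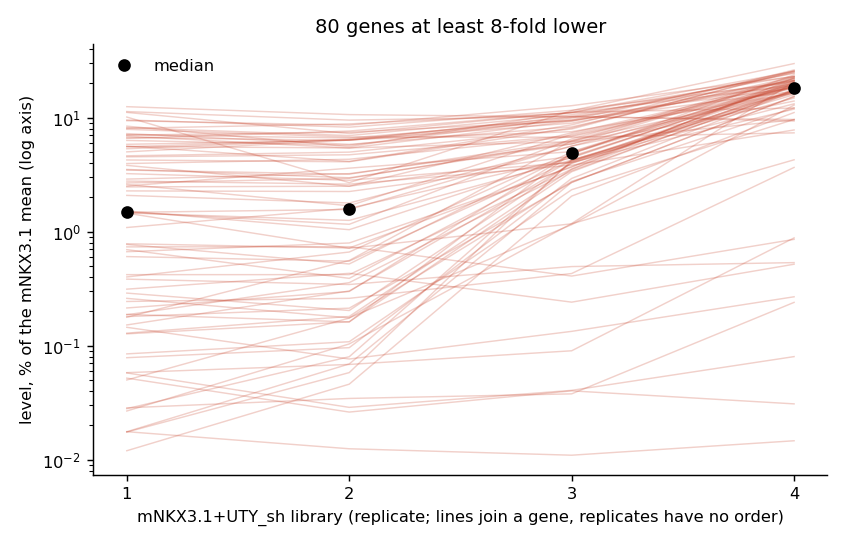
Level of 80 genes that fell at least 8-fold in each mNKX3.1+UTY_sh library (horizontal axis), as percent of the gene's mNKX3.1 mean on a log axis, with a line per gene that only joins its points and a dot at the median. The medians are 1.5%, 1.58%, 4.87% and 18.1% for replicates 1 to 4, and a small set of lines stays under 1% throughout.

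Outside the secretory lists the largest rises were of genes with low values in mNKX3.1. Dnase2b, of the DNase II family, went from 5.43, 4.83, 5.81 and 4.84 to 16.24, 16.32, 16.06 and 15.77, a rise of 10.87 (SE 0.31, adjusted p = 9.91e-15). Lmo3, a LIM-only transcriptional cofactor gene, rose by 7.26 (SE 0.43), from 2.90 to 4.10 up to 10.40 to 10.97. Orm3, of the orosomucoid family, rose by 6.96 (SE 0.17). Doxl2, of the diamine oxidase-like family, rose by 8.35, Spink11 by 7.11, Shisa4 by 7.05, Apol6 by 7.05 and Dgat2l6, of the acyltransferase family, by 6.73. Slc13a2, a sodium-dependent citrate and dicarboxylate transporter gene, rose by 6.63, and Uox, the urate oxidase gene, by 6.56. These 10 were picked among genes whose libraries did not overlap between the groups, so their lack of overlap is no separate result.

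The largest falls outside those lists were of abundant mNKX3.1 transcripts. Mmp7, a secreted metalloprotease gene, went from 12.42, 12.61, 12.82 and 12.69 to 4.04, 3.48, 6.19 and 9.68, a difference of -6.79 (SE 1.33, adjusted p = 2.19e-04). Agr2, which encodes a disulfide isomerase of the endoplasmic reticulum, was at 3.78, 4.13, 8.5 and 10.89 in mNKX3.1+UTY_sh, a difference of -6.58 (SE 1.64). In both genes replicate 4 was above replicate 3, and replicate 3 above the other 2. The same held for Fam115e at -7.62, 5330417C22Rik at -7.09, Atp6v1c2, a proton pump subunit gene, at -6.49, Fut9, a fucosyltransferase gene, at -6.23 and Fcgbp, a mucus protein gene, at -6.23. D030018L15Rik at -7.86, BB123696 at -7.25 and Slc26a4, an anion exchanger gene, at -6.54 were at most 3.38 in every mNKX3.1+UTY_sh library and were low in mNKX3.1 replicate 3, where BB123696 stood at 7.16 against 11.09 to 11.39.

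Transcription factors of both glands differed in both directions. Of 22 tested regulators of the urogenital sinus and prostate 9 rose and 9 fell, with a median of 0.03 (-0.02 without mNKX3.1 replicate 3). Hoxb13, a homeobox gene of the prostate, was at 12.32, 12.18, 12.11 and 12.21 and then at 3.08, 3.33, 6.99 and 9.50, a difference of -6.48 (SE 1.57, adjusted p = 0.00147). Foxa1, a pioneer factor of prostate epithelium, went from 11.81 to 12.12 down to 9.04, 9.13, 9.56 and 9.89, a difference of -2.56 (SE 0.23, adjusted p = 3.31e-08). Hoxb13 spread with the prostate transcripts, and Foxa1 stayed within 1 log2 unit. In both genes replicate 4 was above replicate 3, and replicate 3 above replicates 1 and 2. Creb3l4 and Sox2 fell, at -2.49 and -2.12, whereas Gata2 rose by 1.86, Tbx3 by 1.25 and Trp63, the p63 gene of basal cells, by 1.15.

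Of 17 tested Wolffian duct regulators 9 rose and 6 fell, with a median of 0.55. Pax2, which encodes a paired-box factor needed for Wolffian duct development, was at 3.82, 4.09, 4.71 and 4.11 in mNKX3.1 and at 9.58, 9.72, 9.56 and 9.33 in mNKX3.1+UTY_sh, a rise of 5.36 (SE 0.28, adjusted p = 1.93e-11). The 4 hairpin libraries lay within 0.4 log2 units of each other and of the SVE libraries, at 9.36 to 9.59. Pax8 rose by 2.5, Emx2 by 1.95 and the receptor gene Ret by 1.54. Against that direction Bmp7, a growth factor gene, went from 10.75, 10.67, 10.90 and 10.68 to 7.47, 7.83, 8.21 and 8.70, a difference of -2.70 (SE 0.29, adjusted p = 2.44e-07). Among 11 posterior Hox genes 4 rose and 4 fell, with Hoxd9 up by 3.72 (SE 0.20) and Hoxa9 at -1.99 (SE 0.26). Without mNKX3.1+UTY_sh replicate 4 the number that rose was 2.

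Androgen-regulated genes did not move one way. Of 21 tested members 9 rose and 7 fell. Slc45a3 fell by 4.51, and Tmprss2, a membrane serine protease gene, fell by 3.37. Sgk1, a kinase gene, rose by 2.16 and Herc3 by 1.71. Fkbp5, an immunophilin gene that androgens and glucocorticoids raise, differed by 0.18 (SE 0.22, adjusted p = 0.498). Of 11 genes of steroid metabolism 2 rose and 7 fell, with Akr1c12 at -3.59, Cyp7b1 at -2.56 and Akr1c13 at -2.26, and Srd5a2, the prostate 5-alpha reductase gene, up by 0.72 (SE 0.26). The number that rose was 1 without mNKX3.1 replicate 3 or mNKX3.1+UTY_sh replicate 1 or 2.

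Chromatin regulators were called in both directions. Of 21 tested H3K27 demethylase and Polycomb genes 6 rose and 5 fell, a share under that of all genes tested. Kdm6a, the X-linked relative of Uty, differed by -0.18 (SE 0.07, adjusted p = 0.0404) and Kdm6b, the third gene of that family, by 0.58 (SE 0.08, adjusted p = 3.42e-06). Ezh2, the H3K27 methyltransferase gene, rose by 0.47, Cbx7 by 0.68 and Cbx6 by 1.54. Of 10 genes of the MLL3 and MLL4 complexes 2 rose, Mll2 by 0.34 and Ncoa6 by 0.31, and 4 fell, Uty and Kdm6a among them. Only 2 fell without mNKX3.1 replicate 1 or 2, or without mNKX3.1+UTY_sh replicate 1, 3 or 4. Of 18 G9a and H3K9 genes 6 rose and 4 fell. Suv39h2, an H3K9 methyltransferase gene, fell by 1.53 (SE 0.20), Kdm4a, an H3K9 demethylase gene, rose by 0.54, and Ehmt1, the partner of G9a, differed by -0.11 (SE 0.06, adjusted p = 0.135). Setdb2 rose by 0.98 (SE 0.39, adjusted p = 0.0363) but lost its call without 6 of the 8 libraries in turn. Of 7 X-linked relatives of the Y genes 1 rose, Zfx by 0.40, and 3 fell, Kdm6a, Kdm5c at -0.21 and Eif2s3x at -0.28. Without mNKX3.1 replicate 2 only 1 fell, and with equal sums outside the 50 most abundant genes 2 rose and 1 fell.

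The protein folding machinery of the endoplasmic reticulum was lower with the hairpin label. Of 26 tested genes of the unfolded protein response 2 rose and 24 fell, with a median of -1.01. Hspa5, the BiP chaperone gene, was at 15.39, 15.28, 15.58 and 15.31 and then at 14.07, 14.19, 14.04 and 14.14, a fall of 1.28 (SE 0.13, adjusted p = 9.95e-08). Its 4 hairpin libraries were alike, without the order of the prostate transcripts. Pdia6, a disulfide isomerase gene, fell by 2.16 (SE 0.26), and Pdia4 and Creld2 fell too, at -1.87 and -1.84. The sensors and effectors Ern1 and Xbp1 rose, by 0.51 and 0.27, and 1 rose without mNKX3.1+UTY_sh replicate 1 or 2. Of 46 translocon and transport genes 3 rose and 32 fell, with a median of -0.36, led by the signal recognition particle genes Srp9 at -1.45 and Srp14 at -1.29 and the cargo receptor gene Tmed3 at -1.09.

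Glycosylation genes followed in part. Of 20 N-glycan genes 3 rose and 12 fell, with Uggt1, the glycoprotein folding sensor, at -1.27 (SE 0.07) and Alg12 at -0.69, while Stt3b, a catalytic subunit of the oligosaccharyltransferase, rose by 1.38 (SE 0.10). Of 13 mucin and O-glycan genes 2 rose and 6 fell. Galnt2, which starts O-glycans, rose by 1.93 (SE 0.09), Muc20 was at -3.86 and Fut2 at -1.21. Disulfide oxidases moved against the chaperones: Qsox1 went from 10.41, 10.75, 10.81 and 10.87 to 14.87, 14.92, 14.73 and 14.41, a rise of 4.02 (SE 0.18, adjusted p = 2.15e-12), and Ero1lb rose by 3.93 (SE 0.15). In the glutathione and redox list of 34 genes that holds them, 15 rose and 11 fell. Prdx6, a peroxiredoxin gene, fell by 3.89 (SE 0.56), from 16.99 to 17.10 down to 12.39, 12.51, 13.17 and 14.58, Gpx3 fell by 2.85, and Ggt1 rose by 3.08.

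Genes that shape the content of the secretions differed in both directions. Of 25 protease inhibitor genes 12 rose and 6 fell. Timp1 rose by 3.76, Serpine2 by 2.85 and Slpi by 2.77. Of 7 serine protease genes 2 rose, Plau by 3.38 (SE 0.31) and Prss23 by 1.0, and 3 fell. Of 13 polyamine genes 3 rose and 8 fell, with Smox, the spermine oxidase gene, up by 1.68 and Arg1 at -2.93, low in mNKX3.1 replicate 3. Of 11 genes of the fructose pathway, which the seminal vesicle uses to make seminal fructose, 3 rose and 3 fell, with Slc2a1 up by 1.54, Sord, the sorbitol dehydrogenase gene, at -0.95 and Akr1b8 at -1.33.

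Zinc and citrate, which the prostate accumulates, were represented by 26 tested genes, of which 8 rose and 14 fell. Slc30a2, a zinc exporter gene, went from 12.05, 12.11, 12.38 and 12.14 to 6.09, 5.74, 8.22 and 10.04, a difference of -4.65 (SE 0.97, adjusted p = 4.14e-04). Slc30a10 was at -5.54 and the metallothionein genes Mt3 at -5.27 and Mt1 at -2.10. Slc13a3 was at 6.47, 10.67, 10.32 and 10.94 in mNKX3.1, with replicate 1 low, and differed by -5.74 (-6.78 without that library). Of 26 genes of fluid and ion transport 9 rose and 9 fell, with the water channel gene Aqp8 at -4.22 and the carbonic anhydrase gene Car3 at -3.49. Of 30 lipid synthesis genes 11 rose and 9 fell, with Elovl6 up by 3.18, Acacb up by 2.05, Fasn up by 0.30 and Scd1 at -2.01. Of 40 oxidative phosphorylation genes 9 rose and 15 fell, from Sdhd at -0.60 and Cox4i1 at -0.59 to Uqcrc1 at 0.62.

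The labelled tissue, an epithelium with mesenchyme, was checked with cell type markers. The luminal keratin genes Krt8, at 11.41 to 11.62 and 11.37 to 11.54, and Krt18, at 13.28 to 13.45 and 13.06 to 13.28, were high in both groups and did not pass the test, at -0.08 (SE 0.06) and -0.19 (SE 0.08). Of 15 luminal genes 2 rose, Krt7 by 2.43 and Cldn3 by 0.64, and 6 fell, Epcam at -1.71 and Cd24a at -1.58 among them. Of 15 basal genes 8 rose, among them Krt14 by 1.73 and Krt5 by 0.83, and 5 fell, among them Lama3 at -2.90, Ngfr at -2.45 and Itga6 at -1.97. Of 28 junction genes 11 rose and 10 fell, with Cdh16 up by 3.08, Cldn15 up by 1.46 and Cldn10 at -3.24. Of 4 urothelial genes tested, Upk2 and Upk3b rose by 2.70 and 3.05, and Upk1a and Upk1b fell, at -6.05 and -0.78, while Upk3a, Krt20 and Grhl3 were below 5 in all 8 libraries. Of 15 squamous markers 13 were below 5 in all 8. The summed luminal markers took 0.422% to 0.490% of a mNKX3.1 library and 0.141% to 0.188% of a mNKX3.1+UTY_sh library, and the basal markers 0.0837% to 0.0908% and 0.0345% to 0.0468%. The seminal vesicle list took 1.24% to 1.39% of the former libraries and 51.5% to 60.8% of the latter. That leaves less of the sum for all other genes, so a lower share, here and below, does not by itself mean fewer cells or a lower level.

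Smooth muscle genes were higher with the hairpin label: of 22 tested members 21 rose and 0 fell, with a median of 1.18. Acta2, the smooth muscle actin gene, was at 13.62, 13.47, 13.59 and 13.43 and then at 14.66, 14.51, 14.77 and 14.89, a rise of 1.18 (SE 0.14, adjusted p = 7.24e-07). Lmod1 rose by 2.18 (SE 0.12), Actg2 by 1.72 and Des, the desmin gene, by 1.58. The list's summed level took 0.687% to 0.802% of a mNKX3.1 library and 0.825% to 1.26% of a mNKX3.1+UTY_sh library. Of 30 fibroblast and matrix genes 17 rose and 1 fell, with Col15a1 up by 1.67, Thy1 by 1.63 and Col6a2 by 1.39. The number that fell was 0 to 2 when single libraries were left out. As a share of the whole library, which the seminal vesicle transcripts dominate in mNKX3.1+UTY_sh, that list went from 0.217% to 0.266% down to 0.149% to 0.201%. Of 15 endothelial genes 11 rose and 1 fell, with Kdr up by 0.97, Flt1 by 0.91 and Robo4 by 0.91, and their share was 0.0193% to 0.0230% against 0.0151% to 0.0202%. Of 8 skeletal muscle genes 5 rose and 2 fell, with Neb up by 2.97, Acta1 up by 1.5 and Myh1 at -3.06. The part of these cells in the epithelial differences was not tested.

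Most nerve and adipocyte markers were lower. Of 17 nerve and neuroendocrine genes 1 rose, Ncam1 by 1.95, and 16 fell, with a median of -2.32. Tubb3, the neuronal tubulin gene, was at 7.02, 6.85, 8.01 and 7.06 and then at 1.94, 2.91, 2.03 and 2.74, a difference of -4.83 (SE 0.54, adjusted p = 3.99e-07), and Snap25 and Nefl differed by -4.76 and -4.32. Their summed share was 0.0109% to 0.0184% in mNKX3.1 and 0.00374% to 0.00426% in mNKX3.1+UTY_sh, and 2 markers of the list, S100b among them, were below 5 in all 8. Of 13 adipocyte genes 1 rose, Cebpa by 1.12, and 10 fell, with Adipoq at -3.07 (SE 0.59) and Cfd at -2.95 (SE 0.85). Without mNKX3.1+UTY_sh replicate 2 the number that rose was 2. Their summed share went from 0.0424% to 0.0538% down to 0.0119% to 0.0166%, and Ucp1 was below 5 in all 8.

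Leukocyte markers depended on single libraries. Of 17 leukocyte genes 1 rose, Itgax by 1.18, 8 fell and 8 did not pass, with a median of -1.01, and the groups did not overlap for 4. Emr1, the F4/80 gene of macrophages, was at 7.99, 11.42, 11.04 and 11.64 in mNKX3.1 and at 7.52, 7.29, 7.22 and 7.15 in mNKX3.1+UTY_sh. Replicate 1 of mNKX3.1 was low. In PE, Emr1 was at 6.71, 12.32, 8.62 and 11.46, lower in replicates 1 and 3, whose sum was nearest to mNKX3.1 replicate 1. The difference was -3.23 (SE 0.89, adjusted p = 0.00418), and -4.07 without mNKX3.1 replicate 1. Lyz1 was -1.85 and Fcer1g -1.95. Their summed share was 0.0263% to 0.118% in mNKX3.1 and 0.0156% to 0.0209% in mNKX3.1+UTY_sh. The T and B cell markers Cd3e, Cd8a, Cd79a and Ms4a1 and the neutrophil markers S100a8 and S100a9 were below 5 in all 8 libraries. The number of leukocyte genes that fell was 13 without mNKX3.1 replicate 1, 5 without replicate 3, and 3 without replicate 2 or replicate 4. It was also 3 without mNKX3.1+UTY_sh replicates 3 and 4. Of 16 kidney markers, which the graft site could add, 12 were below 5 in all 8 libraries, with Lrp2 up by 1.90, Cdh16 (also on the junction list) up by 3.08 and Pck1 at -2.64, and 6 of 7 red blood cell markers were below 5. The part of these cells in the other differences was not tested.

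**Figure D5:**
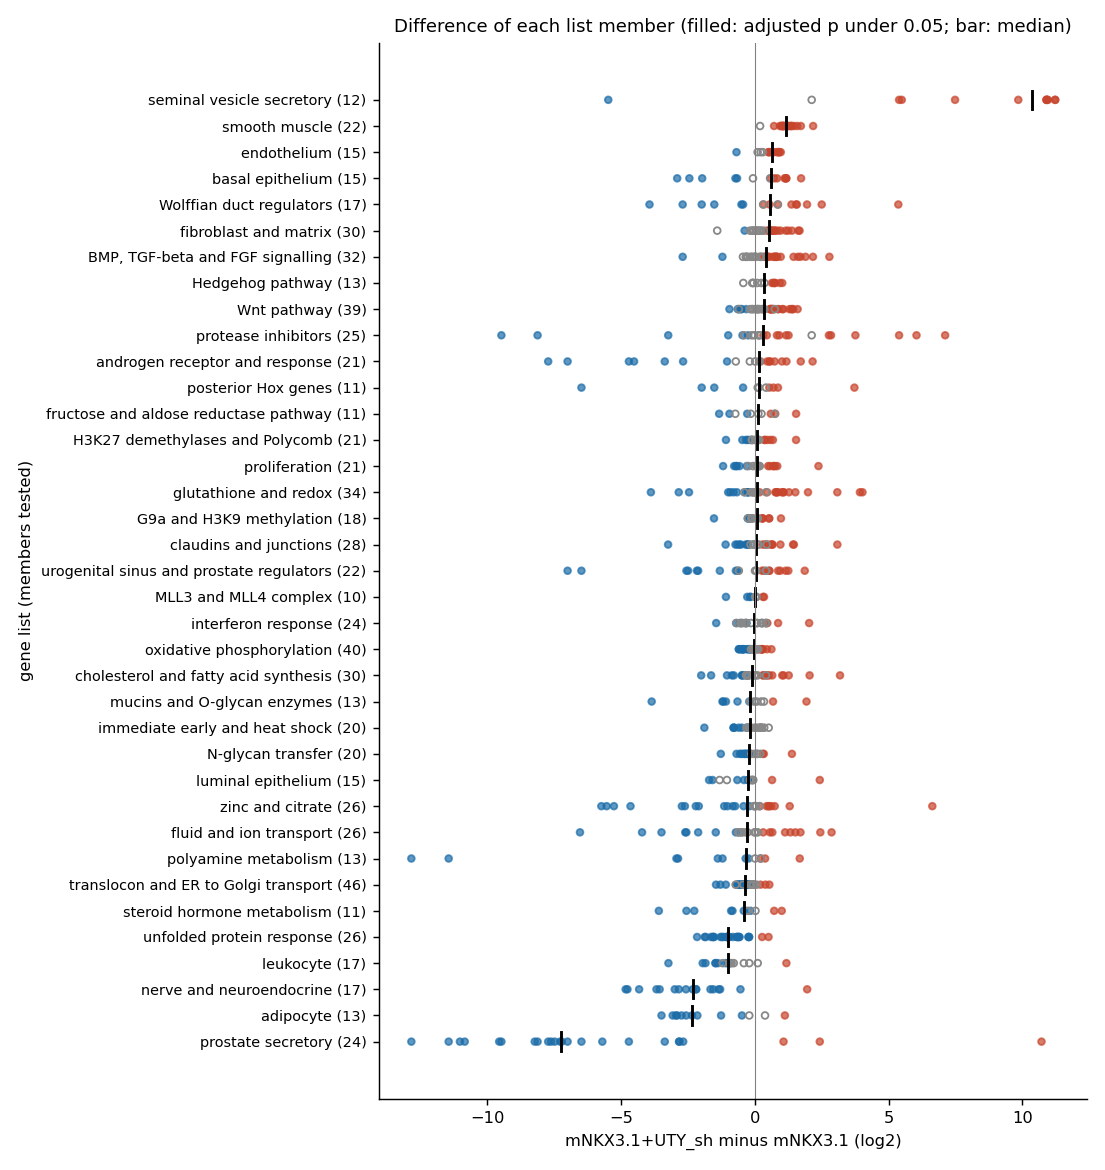
Difference mNKX3.1+UTY_sh minus mNKX3.1 in log2 units (horizontal axis) for each tested member of the gene lists with at least 10 tested members (rows, number tested in brackets), filled where the adjusted p was under 0.05 and open otherwise, with a bar at the list's median. The medians run from -7.25 for prostate secretory to 10.37 for seminal vesicle secretory, and smooth muscle is the row with 21 of 22 members called higher.

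Signals between epithelium and mesenchyme were mostly higher or did not pass. Of 13 Hedgehog pathway genes 6 rose and 0 fell, among them Gli1 by 0.93 and Smo, the signal transducer, by 0.76. These 46.2% were under the 63.8% called and above the 31.4% called higher among all genes tested. Without mNKX3.1 replicate 2, or mNKX3.1+UTY_sh replicate 2 or 3, the number that rose was 5. Shh, the ligand made by urogenital epithelium, differed by -0.05 (SE 0.31, adjusted p = 0.890). Of 39 Wnt pathway genes 19 rose and 6 fell, with the ligand genes Wnt10a up by 1.6 and Wnt6 by 1.43 and the R-spondin gene Rspo1 by 1.40. Of 32 BMP, TGF-beta and FGF genes 19 rose and 2 fell. Fgf10, a mesenchymal ligand of prostate and seminal vesicle growth, went from 7.51, 7.19, 7.29 and 7.05 to 10.05, 10.28, 10.15 and 9.69, a rise of 2.79 (SE 0.26, adjusted p = 4.92e-08). Fgfr3 rose by 2.17, the BMP target genes Id2 and Id1 by 1.89 and 1.71, and Bmp4 by 0.78.

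Stress, interferon and cell cycle genes did not move together. Of 20 immediate early and heat shock genes 1 rose and 7 fell, with the chaperone genes Hsph1 at -1.89 and Hspe1 at -0.79 and Nr4a1 at -0.80, and without mNKX3.1+UTY_sh replicate 3 none rose. Of 24 interferon response genes 4 rose and 5 fell, with Usp18 up by 2.03, Oasl1 up by 0.87 and Mx1 at -1.45. Of 21 proliferation genes 7 rose and 6 fell. Ccnd1, the cyclin D1 gene, rose by 2.38 (SE 0.20, adjusted p = 1.16e-08), from 9.91 to 10.63 up to 12.41 to 12.75, Mcm5 rose by 0.84, and Top2a fell by 1.19. In each of these 3 lists the share called was under the 63.8% of all genes tested.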

How the data were processed

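Poly-A RNA of 20 libraries was sequenced. Per the submitters' processing notes, mm9 was the genome build and the tools were DESeq, Cufflinks 2.0.2, TopHat2 2.0.4 and bcl2fastq 1.8.4. How rat reads were treated, which annotation was used and in which order the tools ran is not given there. The authors deposited log2 values, 1 for each of 23284 genes in every library. In each library the antilogs between 11 and 13 were whole multiples of 1 unit (100% within 0.1), as counts divided by a size factor give, which yielded the depths. Low values level off, so no count test was run.

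Group means were fitted to all 20 libraries with limma 3.58.1 (R 4.3.3), with a variance trend and Benjamini-Hochberg adjustment over 13456 genes, and an adjusted p under 0.05 was called. The script was tested on simulated data. The 45 gene lists, with 1018 genes, and the genes compared were chosen with earlier results of these data known. By rule the text names Uty, Ehmt2, the 10 genes that rose most and the 10 that fell most outside the secretory lists. Those rises and falls were taken from called genes with a mean of at least 5 over the 8 libraries and no overlap between the groups. Up to 3 called members per list with the largest differences (4 for the secretory lists) are named as well, and other list members may be named too. A few of these genes are not reported here. Alternatives covered the libraries fitted, scaling, the minimum value, the variance trend and library weights. Each of the 8 compared libraries was also left out in turn, and 3 settings were chosen after seeing the data. Promoters came from RefSeq, with Python 3.11.15.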

Additional observations from a re-analysis of the deposited data

Results flagged for a closer look

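In a group of 4 libraries, the highest or lowest one was marked where its gap to the next, divided by the group's range, passed Dixon's 95% critical value, which chance gives in about 1 of 20 groups. Of 280 sets of a named gene in either group, 29 were marked. Replicate 3 of mNKX3.1 was the low library for Uty at 10.07, D030018L15Rik at 8.05, BB123696 at 7.16, 5330417C22Rik at 13.08, Slc26a4 at 5.70, Sbp at 8.46, Sbpl at 6.84, 5430419D17Rik at 10.71, Uggt1 at 12.70, Spink5 at 4.29, Arg1 at 3.84, Car3 at 9.63, Upk1a at 10.53 and Adipoq at 7.05, and the high one for Pbsn at 17.96, Stt3b at 12.10, Slc2a1 at 9.79 and Kdr at 7.95. Replicate 1 of mNKX3.1 was low for Srp9 at 9.20, Slc13a3 at 6.47 and Emr1 at 7.99. Replicate 4 of mNKX3.1+UTY_sh was high for Uty at 9.29, Msmb at 6.04, Ddx3y at 10.62, Creld2 at 10.73 and Cox4i1 at 11.87. Replicate 2 of that group was high for Ncoa6 at 10.68 and Nefl at 2.82, and replicate 1 was low for Akr1c13 at 4.36.

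The difference that goes with the hairpin label was another one beside the construct than without it for 6467 genes in the limma interaction, among them 135 of the 140 named genes.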

How the results depend on the processing

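The number of called genes was 7980 to 8304 when each of the 8 libraries was left out in turn, with 3936 to 4107 higher and 4030 to 4197 lower, and the interaction called 5990 to 6356. It was 7489 without mNKX3.1+UTY_sh replicates 3 and 4, 9938 with library weights and 7144 with a minimum of 7. Each of these counts was within 1.5 times of the reported one, and UTY_sh and mNKX3.1+UTY_sh against SVE gave 0 calls in every setting run. No SVE or UTY_sh library was left out in turn. Leaving out single libraries of the 8 therefore could not alter the differences between UTY_sh and SVE. No named gene changed direction in these settings; Setdb2, Eif2s3x and Fcer1g lost their calls in some. No paired analysis was possible because the labels carry no replicate numbers. Genes near the floor are limited by depth, and their differences are understated. The SE of a gene draws on the spread within all 5 groups. For Pbsn the mNKX3.1+UTY_sh, SVE and UTY_sh libraries spread widely, and for Sbp the mNKX3.1 and PE libraries did.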
